A study of Mus musculus with 11 samples.

Results

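This account compares 2 doses of lipopolysaccharide (LPS) in the mouse oviduct: 4 mice given 10 µg, the high dose, against 4 mice given 2 µg, the low dose, a ratio of 5 between doses. The miRNAs compared were chosen by a detection rule over both doses. Each lane's detection bound was set 2 SD above the mean of its negative control probes, and a mouse miRNA was kept when 3 or more of these 8 lanes exceeded it. Of 566 mouse miRNA probes on the assay, 196 met it, and 145 of those were above the bound in all 8 lanes. Each of the 196 was above the bound in at least 1 lane of each dose. Lanes of 1 dose could still supply the 3 needed. miR-135b and miR-129-5p, for example, were above the bound in 3 low dose lanes and 1 high dose lane. The 12 miRNAs just inside the rule, above the bound in 3 lanes, had mean counts of 70.8 to 80.9, and the 10 just outside, above it in 2 lanes, had 56.6 to 79.1.

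All mice were females of the outbred CD1 strain, 6 to 8 weeks old, injected intraperitoneally on the day of estrus and killed 24 h later. The LPS came from E. coli serotype 055:B5 and was given in PBS. The 3 control mice received 0 µg, and a further control animal was not analysed here. Total RNA of each mouse's oviducts, with no cell type separated, was hybridised in a lane of its own on the nCounter miRNA assay, which counts fluorescent barcodes and amplifies nothing. Because this is whole tissue, fewer cells of a type and less of an RNA per cell cannot be told apart in any difference below. Samples 1, 2 and 4 were controls, 5 to 8 the low dose and 9 to 12 the high dose, so sample order and dose cannot be told apart.

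LPS is an outer membrane component of Gram-negative bacteria that is recognised by Toll-like receptor 4. Receptor signalling through NF-κB switches on cytokine genes and also a set of miRNAs, of which miR-146a and miR-155 are the best known. Mature miRNAs are short RNAs that pair through their seed, the bases near their 5′ end, with target mRNAs and lower their translation or stability. The oviduct is lined by secretory and ciliated epithelium on a wall of smooth muscle. A dose comparison at 24 h asks which miRNAs still moved between the doses and which were about as far from control at the lower one.

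The mature sequences below belong to the miRNAs on which that question turns, with the seed (bases 2 to 8) in capitals. They were taken from RefSeq, build GRCm38.p6, in which 136 of the 196 miRNAs were matched, 37 by the exact probe name and the others through a mature arm assigned by hand, since most probe names give no arm. The first 3 had the smallest p between the doses.
miR-203: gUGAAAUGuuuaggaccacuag
miR-101a: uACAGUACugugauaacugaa
miR-101b: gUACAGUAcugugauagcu
The pairs that follow share a seed, and members of the pair miR-26a and miR-26b fell in the same class while let-7c and let-7f, and miR-146a and miR-146b, did not.
miR-26a: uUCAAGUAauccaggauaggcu
miR-26b: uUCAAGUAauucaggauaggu
let-7c: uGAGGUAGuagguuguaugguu
let-7f: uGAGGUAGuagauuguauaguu
miR-146a: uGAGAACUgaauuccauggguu
miR-146b: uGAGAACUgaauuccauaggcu
The next set lies in a 334-base stretch of chromosome 8, where miR-23a, miR-27a and the miR-24-2 copy of miR-24 follow each other.
miR-23a: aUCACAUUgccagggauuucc
miR-27a: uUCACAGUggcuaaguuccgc
miR-24: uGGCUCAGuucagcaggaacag
The last pair had responses to LPS whose size barely differed between the doses.
miR-222: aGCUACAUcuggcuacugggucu
miR-21: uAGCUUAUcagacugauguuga
miR-203 lies at chr12:112130927-112130948 on the plus strand, miR-101a at chr4:101346957-101346977 on the minus strand and miR-101b at chr19:29135338-29135356 on the plus strand. As listed, miR-101a and miR-101b share a run of 15 bases that starts at base 1 of the former and base 2 of the latter, so their bases 2 to 8 are offset by 1 base. miR-146a and miR-146b differ at 2 of 22 bases, as do let-7c and let-7f.

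Total miRNA counts of the 8 LPS lanes ranged from 451323 to 684771, and 97.9% to 98.2% of them fell in the 196 miRNAs. The detection bound was 68.2 to 97.9 counts in 7 of these lanes and 143 in low dose mouse 4, whose negative control NEG_C read 162. Mice of a dose differed by more than counting noise, with chi-square per degree of freedom of 19.5 to 96.5, and each is a separate animal by the labels. The high dose held 2 mice that stood apart: mouse 2 in B2m mRNA and miR-146a, and mouse 3 in many of the miRNAs that were otherwise lower or higher at 10 µg. Results that change their call without one of them are given both ways below. Both mice were singled out from these same values, so the fits without them describe their weight and add no support.

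Between the doses, miR-203 was the only miRNA that passed the test. It is a miRNA of stratified and other epithelia that restrains the proliferation of epidermal progenitors. Its normalized count was 116, 109 and 129 in the control mice, 211, 186, 218 and 217 in the low dose mice and 351, 314, 360.3 and 414 in the high dose mice. The 3 groups did not touch, and every high dose mouse lay well above every low dose mouse. miR-203 rose 1.73-fold from 2 µg to 10 µg, a log2 difference of 0.79 ± 0.10 SE (edgeR adjusted p = 0.000746, higher in 4 of 4 mice). The rise from control to 2 µg was of like size, 0.82 on the log2 scale (edgeR adjusted p = 0.00234). The 2 µg mice were therefore at 50.9% of the log2 distance that the 10 µg mice had from control. Leaving out each of the 11 mice in turn moved the dose difference between 0.72 and 0.85 and never ended the call. Scaling to the assay's positive controls alone gave 0.76 ± 0.21 SE (edgeR adjusted p = 0.391). Scaling to the mRNA probes, B2m among them, gave 0.58 ± 0.34 (edgeR adjusted p = 0.986).

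Over all 196 miRNAs, this 1 call is 0.51%. Before adjustment, 27 miRNAs or 13.8% of those tested had a p under 0.05, 14 of them higher and 13 lower at 10 µg. The median difference over all 196 was 0.01 on the log2 scale, with a median SE of 0.12. In 11 miRNAs, 5.61%, the 4 high dose mice did not overlap the 4 low dose mice, 6 higher and 5 lower. Those higher were miR-203, miR-101a, miR-101b, miR-126-5p, miR-30b and miR-429, and those lower miR-23a, miR-135b, miR-190b, miR-146b and miR-708. For miR-135b only 1 of 4 high dose lanes was above the detection bound, so its values at 10 µg are near background. With 1 mouse fewer a group overlaps less easily, and the count was 41 without high dose mouse 3, 20 without high dose mouse 1 or low dose mouse 3, 19 without low dose mouse 1 and 17 without low dose mouse 2. The number of calls was 1 in each fit but those without low dose mouse 3 (2, with miR-101a), without high dose mouse 2 (2, with miR-146a) and without high dose mouse 3 (13), as the bar chart of calls with each mouse left out shows. DESeq2 called 4, adding miR-101a (adjusted p = 0.0218), miR-101b (adjusted p = 0.0218) and miR-126-5p (adjusted p = 0.0332).

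**Figure D1:**
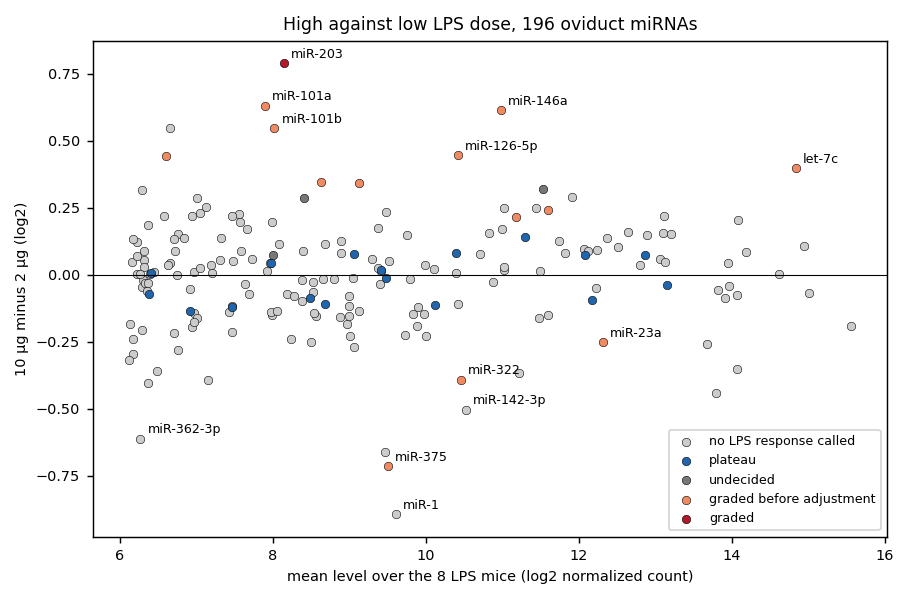
Each point is 1 of 196 miRNAs, with its mean level over the 8 LPS mice on the x axis (log2 normalized count) and its log2 difference between 10 µg and 2 µg on the y axis, coloured by class. miR-203 is the highest point at 0.79, the lowest is miR-1 at -0.89, and the median lies at 0.01.

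**Figure D2:**
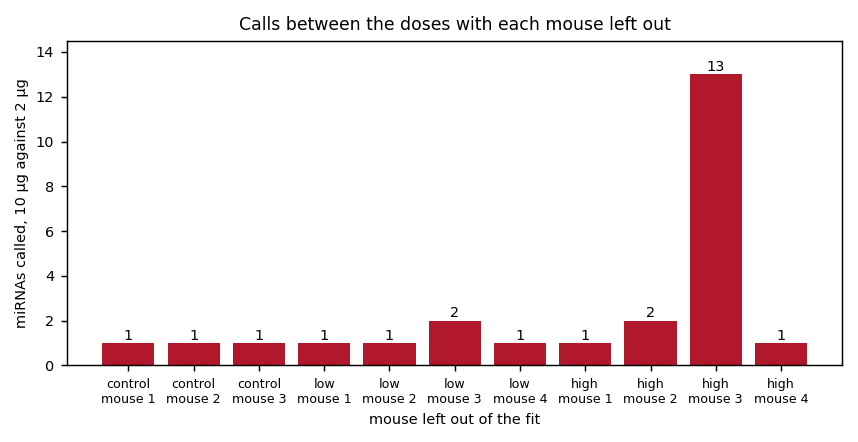
Bars give the number of miRNAs called between 10 µg and 2 µg (edgeR adjusted p under 0.05) when the mouse named on the x axis was left out of the fit. The count was 13 without high dose mouse 3 and 1 or 2 without any other mouse.

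To ask which responses were graded and which alike at both doses, the miRNAs were first sorted by the mean of both doses against control. That contrast favours neither dose. By it 34 of 196 miRNAs responded, 17.3%, with 24 higher and 10 lower than control (edgeR adjusted p under 0.05). The split depended on the scaling, with 16 of 16 higher under the positive controls alone and 0 of 2 under the mRNA probes. Each dose alone gave 16 calls against control at 2 µg, 8.16%, and 35 at 10 µg, 17.9%, both against the same control mice. Of the 34 responders, 30 stood further from control at 10 µg than at 2 µg and 4 stood nearer. A responder was called graded when its dose difference passed the adjusted threshold in the direction of the response, graded before adjustment when only its unadjusted p was under 0.05, and a plateau when the 95% interval of its dose difference lay within 0.5 log2 units of 0 and its p was not under 0.05. By these rules 1 miRNA was graded (miR-203), 13 were graded before adjustment, 17 were plateaus and 3 were undecided. The interval of the dose difference lay within 0.5 in 143 of all 196 miRNAs and in 20 of the 34 responders, of which miR-23a, miR-26b and miR-30b were sorted as graded before adjustment.

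**Figure D3:**
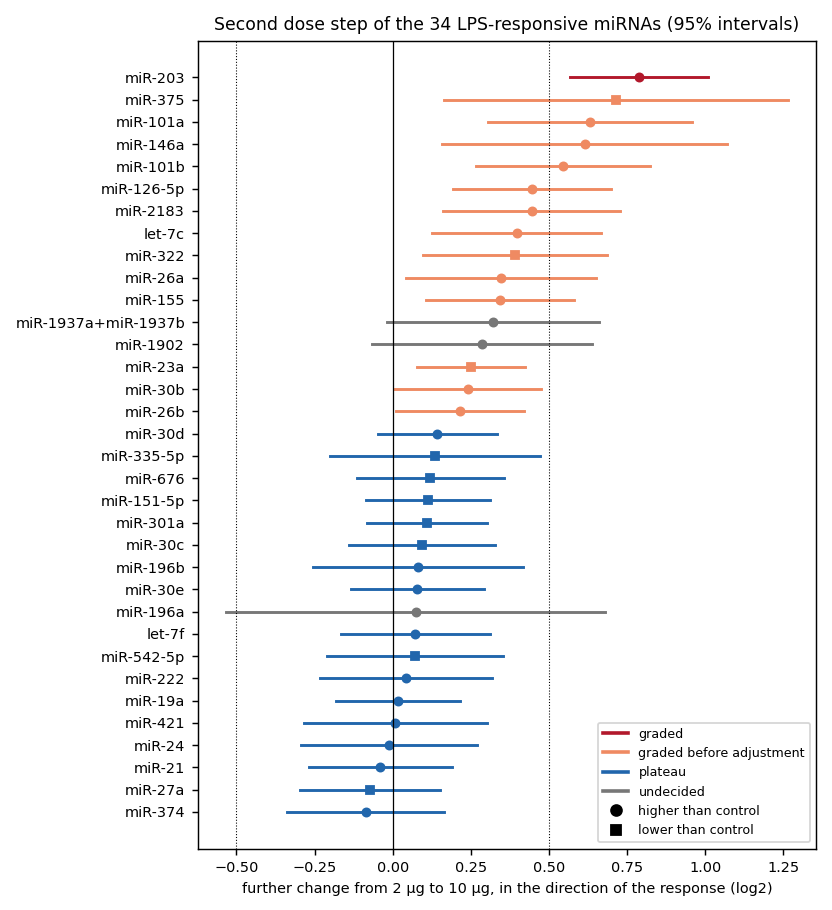
For each of the 34 responders the point is the further log2 change from 2 µg to 10 µg in the direction of its LPS response, and the bar its 95% interval, with dotted lines at the 0.5 margin. Circles are miRNAs higher than control and squares those lower, and miR-203 is the only miRNA whose whole interval lies above 0.5.

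The paralogs miR-101a and miR-101b, known to target the chromatin regulator Ezh2, came next after miR-203. miR-101a stood at 101, 83.1 and 112 normalized counts in control mice, 135, 191, 233 and 189 at 2 µg and 288, 308, 246 and 319 at 10 µg. Its lowest high dose mouse, mouse 3, was above the highest low dose mouse, and all low dose mice were above all controls. The dose difference was 0.63 ± 0.15 SE (edgeR adjusted p = 0.0754), which did not pass. miR-101b stood at 176, 152 and 149 in controls, at 206, 245, 223 and 172 in the low dose mice and at 299, 307, 261 and 369 in the high dose mice, so that its doses did not overlap while low dose mouse 4 lay within the control range. Its difference was 0.55 ± 0.13 SE (edgeR adjusted p = 0.0754). Without high dose mouse 3 both passed, at 0.72 ± 0.16 SE for miR-101a (edgeR adjusted p = 0.0137) and 0.63 ± 0.12 for miR-101b (edgeR adjusted p = 0.00978).

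miR-146a and miR-155 are induced by Toll-like receptor signalling. miR-146a lowers the signalling proteins Traf6 and Irak1 and so dampens the pathway, while miR-155 lowers Socs1 and sustains it. miR-146a stood at 832, 878 and 965 normalized counts in control mice, 1599.6, 1809.9, 1286 and 1685 at 2 µg and 2844, 1315, 2565 and 3039 at 10 µg. High dose mouse 2 lay inside the low dose range and the other 3 high dose mice lay far above it. Its dose difference of 0.61 ± 0.21 SE did not pass (edgeR adjusted p = 0.172); without high dose mouse 2 it was 0.82 ± 0.13 and passed (edgeR adjusted p = 0.00333). miR-155 stood at 359, 392 and 367 in controls, 446, 531, 483 and 512 at 2 µg and 643, 658, 496 and 705 at 10 µg. Here it was high dose mouse 3 that lay among the low dose mice. The difference was 0.34 ± 0.11 SE (edgeR adjusted p = 0.167) and 0.45 ± 0.10 without that mouse (edgeR adjusted p = 0.0130). The name of the miR-155 probe carries a factor with no stated use. Multiplied by the lane's POS_A control, it came out above the miR-155 count in 4 lanes (3 control, 1 low dose), and subtracting that product turned the dose difference into 1.38 ± 0.63 SE (edgeR adjusted p = 0.395).

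miR-126-5p, which is processed from an intron of the endothelial gene Egfl7, was graded before adjustment with 3 separate ranges. It stood at 877, 995 and 963 normalized counts in controls, 1152, 1074, 1191 and 1215 at 2 µg and 1684, 1454, 1287 and 1885 at 10 µg. The difference of 0.45 ± 0.12 SE did not pass (edgeR adjusted p = 0.108) and passed without high dose mouse 3, at 0.55 ± 0.11 (edgeR adjusted p = 0.0130). The other arm of the same hairpin, miR-126-3p, stood at 4015, 4074, 3991 and 4525 at 2 µg and 5306, 4164, 4170.1 and 4089 at 10 µg, with overlapping groups and a difference of 0.09 ± 0.11 SE (edgeR adjusted p = 0.743). The difference between the arms was not tested.

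The other higher miRNAs graded before adjustment included let-7c, a member of the differentiation-associated let-7 family. It stood at 23046, 18794 and 19489 normalized counts in controls, 22064, 24289, 27338 and 27481 at 2 µg and 30879.5, 35198, 27022 and 40103 at 10 µg. High dose mouse 3 lay inside the low dose range and the other 3 above it. The difference was 0.40 ± 0.13 SE (edgeR adjusted p = 0.167), and 0.50 ± 0.11 without high dose mouse 3 (edgeR adjusted p = 0.0149). miR-26a and miR-26b share the seed printed above and also target Ezh2. Their dose differences were 0.35 ± 0.14 SE (edgeR adjusted p = 0.277) and 0.21 ± 0.09 (edgeR adjusted p = 0.321), and in both high dose mouse 3 lay within the low dose range. The LPS response of miR-26b, on which its class depends, was no longer called without any 1 of 4 mice and in 8 of 25 alternatives in all. That of miR-26a was lost in 1 of 25. miR-30b, of the miR-30 family, stood at 2598, 2717, 3082 and 2994 at 2 µg and 3112, 3629, 3141 and 3583 at 10 µg, just apart, with a difference of 0.24 ± 0.11 SE (edgeR adjusted p = 0.337). miR-2183 differed by 0.44 ± 0.13 SE (edgeR adjusted p = 0.167), and by 0.54 ± 0.13 without high dose mouse 3 (edgeR adjusted p = 0.0209), but of the 3 control lanes only 1 exceeded the bound for it, so its distance from control is uncertain.

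Below control, 3 miRNAs were graded before adjustment: miR-23a, miR-322 and miR-375. miR-23a stood at 7995, 7205 and 6934 normalized counts in controls, 5276, 5703, 5750.0 and 5425 at 2 µg and 4481, 4798, 4476 and 4859 at 10 µg. The 3 ranges were separate and narrow, with a second step of -0.25 ± 0.08 SE (edgeR adjusted p = 0.167) after a first of -0.41. miR-322, the mouse counterpart of human miR-424 and a holder of the miR-15/16 seed, stood at 2330.0, 2706 and 2186 in controls, at 1643, 1566, 1719 and 1449.5 in the 2 µg mice and at 1046, 1111, 1594 and 1112 in the 10 µg mice. High dose mouse 3 was inside the low dose range and the other 3 below it. Its difference was -0.39 ± 0.14 SE (edgeR adjusted p = 0.172), and -0.53 ± 0.11 without high dose mouse 3 (edgeR adjusted p = 0.0130).

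miR-375, a miRNA of endocrine and secretory epithelium, had the largest second step among responders after miR-203, and the largest SE of the 14 graded miRNAs. Its normalized counts were 1451, 1342 and 1386 in controls, 1284, 885, 655 and 796 at 2 µg and 457, 381, 896 and 469 at 10 µg. Low dose mouse 1 was close to control, and high dose mouse 3 lay among the low dose mice while the other 3 were below all of them. The difference was -0.72 ± 0.25 SE (edgeR adjusted p = 0.172), and it reached -1.04 ± 0.19 without high dose mouse 3 (edgeR adjusted p = 0.00690). Over the 14 graded miRNAs, with or without adjustment, the 2 µg mice had covered 39.7% to 64.2% of the log2 distance from control to 10 µg. For the plateau miRNAs the range was 68.2% to 124%. The classes were sorted by the dose difference, so the gap between these ranges follows from the sorting. In 5 of all 196 miRNAs, 2.55%, control, low dose and high dose mice formed 3 separate ranges in dose order: miR-203, miR-101a, miR-126-5p, miR-23a and miR-30b.

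**Figure D4:**
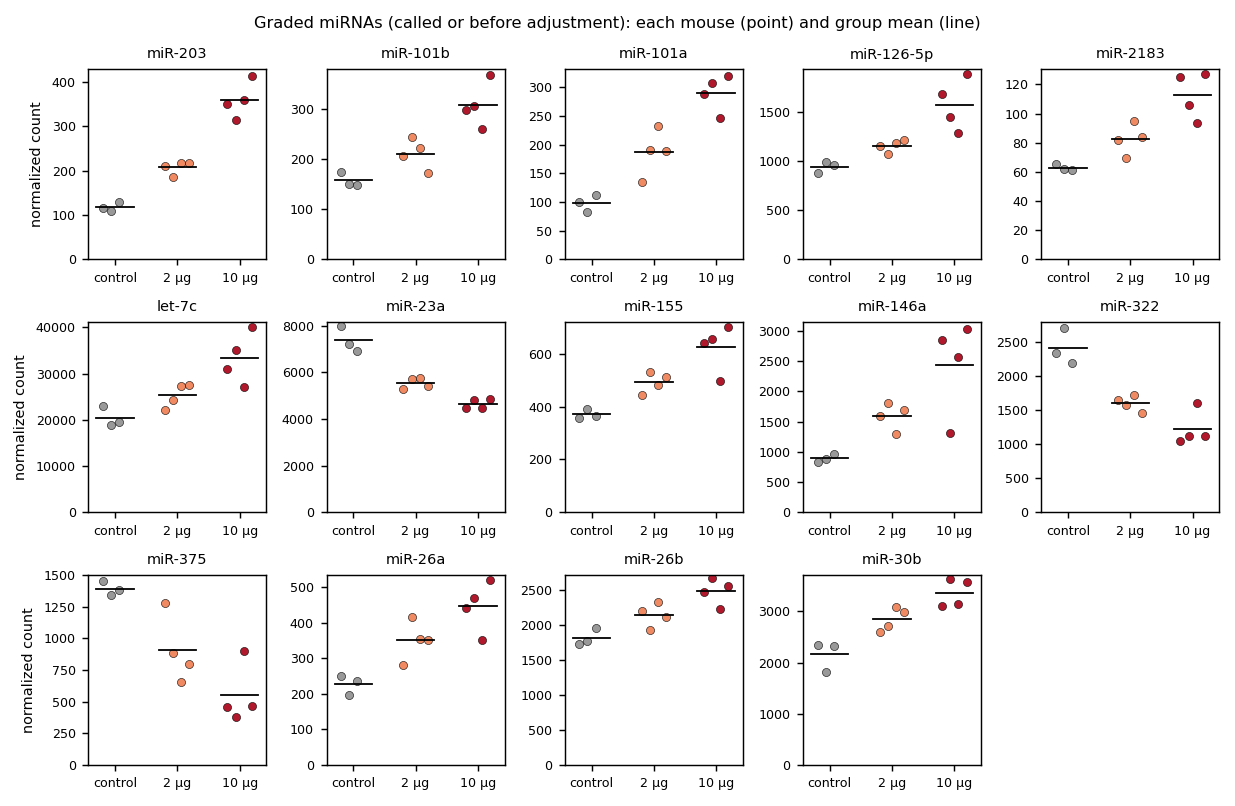
Each panel plots 1 of the 14 graded miRNAs (called or before adjustment), with the normalized count of each mouse as a point and the group mean as a line, for 3 control, 4 low dose (2 µg) and 4 high dose (10 µg) mice, drawn from left to right in mouse number. The third high dose mouse lies nearest the low dose mice in 10 of the 14 panels.

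The plateau group held 17 miRNAs, 10 higher and 7 lower than control, whose dose difference was at most 0.14 on the log2 scale in either direction. Of these, 13 still stood further from control at 10 µg and 4 nearer. Their number was 9 without control mouse 2 and 28 without high dose mouse 1. In 10 of the 17 the LPS response itself was no longer called when some single mouse was left out; the exceptions were miR-222, miR-21, miR-196b, miR-27a, miR-30c, miR-30d and miR-301a. miR-222, which targets the cell cycle inhibitor p27, stood at 129, 121 and 144 normalized counts in controls, 226, 235, 279 and 253 at 2 µg and 201, 303, 283 and 235 at 10 µg. Every LPS mouse lay above every control and the doses overlapped over most of their range. It rose 1.89-fold at 2 µg (edgeR adjusted p = 0.00277), and the further difference to 10 µg was 0.04 with a 95% interval from -0.23 to 0.32. miR-21, induced in inflamed tissue and known to target Pdcd4, stood at 6262, 6241 and 6583 in controls, at 8628, 9729.5, 9214 and 9369 in the 2 µg mice and at 7768, 7784, 10296 and 10091 in the 10 µg mice. High dose mice 1 and 2 were below all low dose mice and mice 3 and 4 above them, and the interval of the difference ran from -0.27 to 0.19.

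Further plateaus above control were miR-196b, miR-421, miR-30d, miR-30e, miR-374, miR-24, let-7f and miR-19a. miR-196b, encoded in a Hox gene cluster, stood 0.67 above control at 2 µg and 0.75 at 10 µg on the log2 scale, with an interval of the dose difference from -0.25 to 0.42. miR-421 was below the detection bound in all 3 control lanes and above it in 2 of 4 high dose lanes, so its plateau rests on counts near background. Below control were miR-30c, miR-27a, miR-301a, miR-335-5p, miR-542-5p, miR-676 and miR-151-5p. miR-30c stood at 6554, 6662 and 7058 normalized counts in controls, 5294, 4253, 4874 and 4581 at 2 µg and 4900.2, 4951, 4242 and 3708 at 10 µg, apart from control at both doses and overlapping between them. The interval of miR-335-5p, from -0.47 to 0.20, came closest to the margin. Both doses stood apart from control with overlapping doses in 24 of the 34 responders and in 28 of all 196 miRNAs. The 24 include miRNAs graded before adjustment, such as miR-155. Responders were chosen by their distance from control, which favours this pattern among them.

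The classes also differed in quantities that bear on how easily a miRNA is sorted. The median size of the LPS change was 0.65 on the log2 scale in the 14 graded miRNAs and 0.42 in the 17 plateaus. The latter lies below the margin of 0.5. Only 5 of the 17 plateaus had a change from control to the low dose of over 0.5. In the others the margin was at least as wide as that change, so an equally large further change could lie inside it. For them the class alone cannot show that the response had levelled off. The median SE of the dose difference was 0.13 and 0.11. With a margin of 0.3 in place of 0.5, only 5 of the plateaus were left. The 3 undecided responders were miR-1902, at 0.28 (95% interval -0.07 to 0.64), the joint probe for miR-1937a and miR-1937b, at 0.32 (-0.02 to 0.66), and miR-196a, at 0.07 (-0.53 to 0.68).

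Whether the step from 2 µg to 10 µg differed from the step from control to 2 µg was tested directly. No miRNA passed in edgeR (0 of 196, 0%), and 14 had an unadjusted p under 0.05, 7.14%, of which 12 had the larger first step. DESeq2 and limma-voom each gave 0 calls as well. The smallest p was that of miR-222, whose second step was 0.88 ± 0.23 SE smaller than the first on the log2 scale (difference of steps -0.88, edgeR adjusted p = 0.347). miR-142-3p, miR-429, miR-21 and miR-27a followed, all at edgeR adjusted p = 0.347. So the contrast between the graded and the plateau group is a sorting by intervals, and no single miRNA was shown to have unequal steps.

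A further 13 miRNAs had an unadjusted p under 0.05 between the doses without a called LPS response, out of 162 without one. miR-1, a miRNA of heart and skeletal muscle, had the largest difference of all 196. Its normalized counts were 938, 955 and 869.5 in controls, 889.7, 1236, 1144 and 796 at 2 µg and 233, 423, 972 and 556 at 10 µg. High dose mouse 3 lay within the low dose range and the other 3 below it. The difference was -0.89 ± 0.31 SE (edgeR adjusted p = 0.172), and -1.32 ± 0.24 without that mouse (edgeR adjusted p = 0.00690). miR-142-3p, a miRNA of blood-forming cells, stood at 1090.2, 1573 and 1358 in controls, at 1578, 1937, 1591 and 1807 in the 2 µg mice and at 999, 1122, 1586 and 1168 in the 10 µg mice, with the low dose at or above the top of the control range and 3 high dose mice near its bottom. Its difference was -0.50 ± 0.15 SE (edgeR adjusted p = 0.167) and -0.64 ± 0.14 without high dose mouse 3 (edgeR adjusted p = 0.0149).

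miR-362-3p stood at 99.9, 103, 85.5 and 86.5 normalized counts at 2 µg and 51.7, 48, 94.8 and 48.8 at 10 µg, and only 1 of 4 high dose lanes was above its detection bound. That lane was mouse 3, so at 10 µg the other values are near background. The difference was -0.61 ± 0.20 SE (edgeR adjusted p = 0.167), and -0.90 ± 0.12 without mouse 3 (edgeR adjusted p = 0.00121). For miR-185 it was -0.39 ± 0.13 SE (edgeR adjusted p = 0.167) and -0.49 ± 0.11 (edgeR adjusted p = 0.0162). The remaining lower ones were miR-135b, miR-190b, miR-16, miR-194, miR-146b and miR-708, with differences from -0.40 to -0.22, and the higher ones miR-429, miR-200b and miR-10a, at 0.29, 0.22 and 0.25 (edgeR adjusted p from 0.167 to 0.354 over the 13). miR-194 and miR-708 are named after their values were seen, and miR-135b, like miR-362-3p, was above the bound in only 1 of 4 high dose lanes. miR-429 and miR-200b keep epithelial cells epithelial by lowering Zeb1 and Zeb2. miR-429 stood at 4892, 3789 and 4666 in controls, 3789, 2845, 3697 and 3513 at 2 µg and 3971, 4681, 4080.3 and 4216 at 10 µg, so that all high dose mice lay within the control range and 3 of 4 low dose mice below it. miR-708 had its low dose mice, at 114, 114, 109 and 115, above both the controls, at 99.8, 85.3 and 92.8, and the high dose mice, at 105, 87.9, 103 and 93.5. miR-190b showed the reverse, with high dose mice at 478, 503, 485 and 431 below both other groups, at 565, 545, 557 and 554 for the low dose and 583, 561 and 547 for controls.

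High dose mouse 3 lay nearest to the low dose side in 10 of the 14 graded miRNAs and in 17 of the 27 with an unadjusted p under 0.05. In 7 of those 10 its value was inside the low dose range. These miRNAs were picked by their dose difference, and the same count over all 196 was not made. Leaving out the mouse nearest the other dose enlarges such a difference, so the calls that follow are no separate support. Without high dose mouse 3, 13 of 188 miRNAs passed between the doses, 7 higher and 6 lower. The higher ones were miR-203, miR-101a, miR-101b, miR-126-5p, miR-2183, let-7c and miR-155, and the lower ones miR-375, miR-322, miR-1, miR-142-3p, miR-185 and miR-362-3p. In miR-203 this mouse, at 360 normalized counts, was the second highest of its group. Its lane's total of 575171 counts, ligation control and binding density were within the range of the other lanes, while the geometric mean of its positive controls, 896 counts, was the lowest of the 11. The part of the lane in these values was not tested. High dose mouse 2 lay nearest to the low dose side in 2 of the 14, miR-203 and miR-146a. Leaving it out gave calls for these 2 alone.

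**Figure D5:**
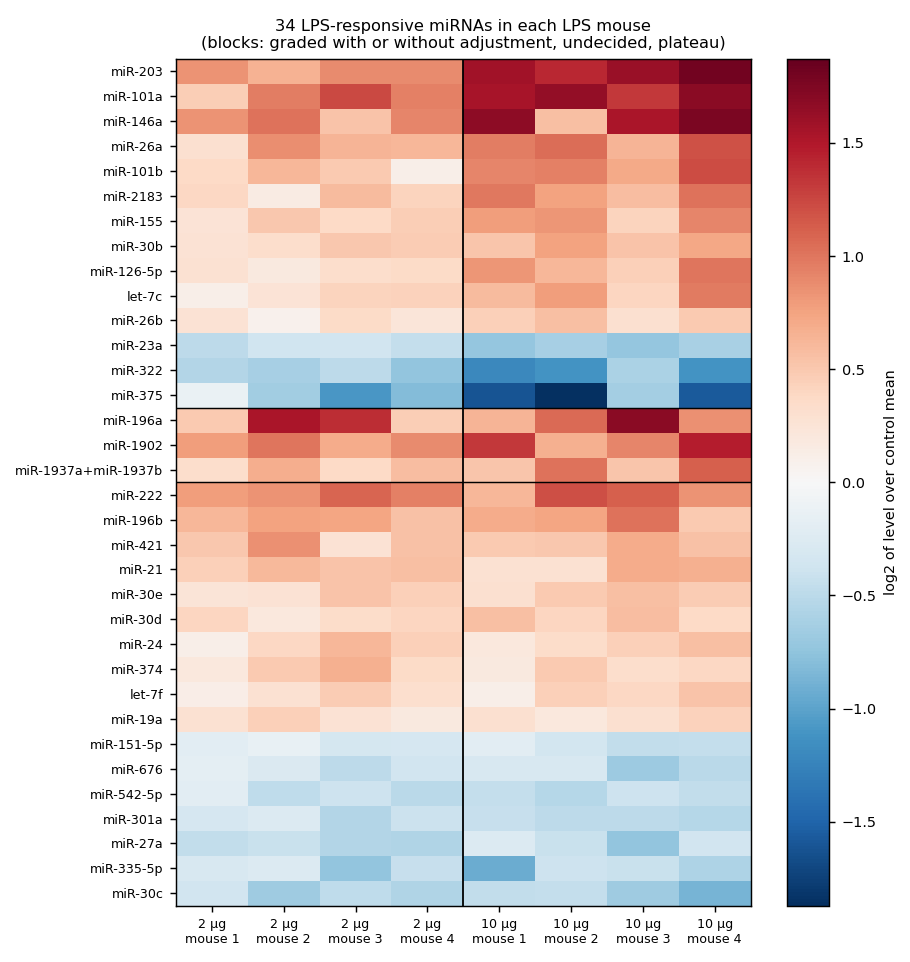
Colour gives the log2 ratio of each LPS mouse to the control mean for the 34 responders, red above and blue below control, in blocks for graded (with or without adjustment), undecided and plateau miRNAs. The graded block deepens from the 4 low dose to the 4 high dose columns except in the third high dose mouse for 7 miRNAs and in the second for miR-146a; the blocks were sorted by this dose difference, so the contrast with the plateau block follows from the sorting.

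The mRNA reference probes gave a further reading of each mouse. B2m, an interferon-responsive light chain of MHC class I, stood at 689, 660.1 and 847 counts in controls after scaling to the positive controls, 3528, 3036, 1677 and 3209 at 2 µg and 5697, 884, 6161 and 4701 at 10 µg. High dose mouse 2 was just above the controls and the other 3 were above every low dose mouse. The dose difference was 0.33 on the log2 scale (two-sided exact permutation p = 0.686, where the smallest possible with 70 arrangements is 0.0286). Without high dose mouse 2 it was 0.99 (two-sided exact permutation p = 0.0286, adjusted over the 4 probes p = 0.114). Actb, Gapdh and Rpl19 differed by 0.08, 0.11 and 0.15 (exact permutation p = 0.743, 0.514 and 0.229), and each of the 4 probes was lowest of its group in high dose mouse 2.

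By lists chosen with earlier results of these data known, the counts between the doses stand against 1 call in 196 and a median difference of 0.01. Of 11 detected LPS response miRNAs, 1 rose and 10 did not pass, with a median of 0.08. miR-203 was that one, miR-146a and miR-155 are described above, and miR-132 stood at 468, 380.4, 321 and 415 normalized counts at 2 µg and 576, 279, 399 and 465 at 10 µg, again lowest in high dose mouse 2. miR-146b, which has the seed of miR-146a, stood at 356, 385, 397 and 441 at 2 µg and 313, 306, 353 and 355 at 10 µg, with a difference of -0.25 ± 0.11 SE in the opposite direction (edgeR adjusted p = 0.298). Of 13 epithelial miRNAs, 1 rose (miR-203) and 12 did not pass, median 0.15.

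No member of the other lists passed in edgeR, and at most 2 members of a list had an unadjusted p under 0.05. DESeq2 called miR-101a, miR-101b and miR-126-5p among them. The median differences were -0.15 for 7 leukocyte, 0.12 for 4 endothelial, -0.25 for 4 muscle, 0.05 for 5 ciliated cell and -0.36 for 3 erythroid miRNAs. They were 0.06 for 9 of the let-7 family, 0.08 for 5 of the miR-30 family, -0.13 for 6 of the miR-15/16 family and 0.05 for 3 of the miR-29 family. For both members of the miR-26 and the miR-101 family they were 0.28 and 0.59. The miR-23/27/24 clusters with 5 members had 0.06, the miR-17 clusters with 7 had -0.03, and the miR-130 and miR-301 family with 4 had -0.13. The Hox clusters with 4 had 0.08, the miR-125 and miR-99 families with 5 had 0.09, and the Dlk1-Dio3 cluster with 13 had 0.0041. So among families the miR-101 pair had the largest median, and the large clusters lay near the median of all miRNAs.

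Summed over the markers of each cell type, the groups mostly overlapped. The 10 detected epithelial markers summed to 30251 to 39819.8 normalized counts at 2 µg and 34923 to 41134 at 10 µg. The 6 leukocyte markers, led by miR-142-3p, summed to 5314 to 6053 at 2 µg, 4330 to 5167 at 10 µg and 4279 to 5621 in controls. For this sum the dose groups did not overlap, but its members went both ways. Of the 7 miRNAs in the wider leukocyte list, 3 had dose differences above 0 and 4 below. The summed markers miR-155, at 0.34, and miR-223, at 0.08, were among those above. The endothelial pair summed to 5148 to 5740 and 5457 to 6990, 4 muscle markers to 41341 to 59878 and 41216 to 52538, 4 ciliated cell markers to 21894 to 28334 and 22687 to 28519, and 3 erythroid markers to 1879 to 5448 and 2293 to 3089.6, at 2 µg and 10 µg. miR-182, miR-133b, miR-449b and miR-449c were not among the tested miRNAs, and every other listed marker was. The part of these cell types in the differences above was not tested.

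miRNAs with the same seed did not always get the same call, and differences between such miRNAs were not tested. The let-7 seed was held by 10 matched miRNAs with dose differences from -0.08 to 0.40: let-7c was graded before adjustment, let-7f was a plateau and the other 8 had no called response. The LPS response of let-7f was no longer called without any 1 of 9 of the 11 mice, and that of let-7c without control mouse 2 or 3. let-7f stood at 6411, 7170.0, 8242 and 7338 normalized counts at 2 µg and 6348, 8082, 7731 and 8511 at 10 µg, with an interval from -0.17 to 0.31. The miR-15/16 seed was held by 6, of which miR-322 alone responded. In the miR-30 family miR-30b was graded before adjustment while miR-30c, miR-30d and miR-30e were plateaus, miR-30c in the opposite direction to the others. Within the chromosome 8 cluster, miR-23a was graded downward before adjustment and miR-27a was a plateau below control, whereas miR-24 was a plateau above control, a response that was no longer called without any 1 of 8 mice and in 16 of 25 alternatives in all. It stood at 638, 471 and 525 in controls, 589, 713, 835 and 745 at 2 µg and 622, 689, 742 and 804 at 10 µg. miR-24 also has a copy on chromosome 13, and the probe reads both.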

How the data were processed

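The authors deposited 1 table of barcode counts, 1 column a mouse, treated as estimated counts because lane quality rows share its columns; 100% of the probe values the authors deposited were whole numbers. No normalization by the authors is recorded, and per the labels each sample met the maker's quality criteria. The 196 miRNAs were scaled with TMM and tested with edgeR 4.0.16 quasi-likelihood F-tests under R 4.3.3, fitting 3 group means to the 11 mice, adjusted by Benjamini-Hochberg over the 196. Normalized counts divide by these scale factors. The SE is the log2 difference divided by the square root of F, and intervals are 95%. The mRNA probes were tested by exact permutation.

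The members, 19 lists and naming rule were chosen with earlier results of these data known. The rule names all calls, the 10 smallest p on each side, the classes of responder, up to 4 members per list, the 5 smallest p for unequal steps and the control probes. The fit was tested on simulated counts. Alternatives were 4 scalings, 3 filters, background subtraction, DESeq2 1.42.0, voom in limma 3.58.1, one-way analysis of variance, other thresholds, a replicate block, leaving out each mouse and, added after seeing the data, the POS_A subtraction and a bound without NEG_C.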

Additional observations from a re-analysis of the deposited data

Results flagged for a closer look

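Among the named miRNAs and mRNA probes, 182 groups of 4 mice were examined for a mouse whose gap to its nearest neighbour took up most of the group's range (Dixon's gap ratio, above its 95% critical value), and 9 were found, 4.95%. Chance gives about 1 in 20. High dose mouse 3 was the highest of its group in miR-322 (ratio 0.879, 1594 normalized counts against 1046 to 1112 in the others), in miR-362-3p (0.920, 94.8 against 48.0 to 51.7) and, just past the limit, in miR-375 (0.83, 896 against 381 to 469). High dose mouse 2 was lowest in Actb (0.955, 1818 counts against 2975 to 3031). High dose mouse 1 was highest in miR-126-3p (0.933, 5306 against 4089 to 4170.1). In the low dose, mouse 4 was highest in miR-126-3p (0.844), mouse 1 in miR-10a (0.898) and miR-99a (0.964), and mouse 2 lowest in miR-29b (0.855).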

How the results depend on the processing

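The single call between the doses became 0 with the positive controls alone and 0 with mRNA probe scaling (10 and 4 miRNAs at an unadjusted p under 0.05), 4 with the DESeq2 test, 3 at an adjusted p under 0.10, and 1 to 13 with each mouse left out. The 34 LPS responses became 16 and 2 under those scalings and 23 to 47 with each mouse left out. The 17 plateaus became 5 and 0 under those scalings, 32 at an adjusted p under 0.10, 5 with the margin of 0.3, and 9 to 28 with each mouse left out. The 11 miRNAs without overlap became 1 and 2 under those scalings, 27 without the filter, where 566 were tested, and 11 to 41 with each mouse left out. With mRNA probe scaling the median SE rose from 0.12 to 0.33 and the median dose difference fell from 0.01 to -0.15, and the LPS difference of miR-19a reversed to -0.015. The probes used for that scaling include B2m, which itself differed between the groups. Scaled to the positive controls, B2m averaged 732 counts in controls, 2863 at 2 µg and 4361 at 10 µg, with 884 in high dose mouse 2. Without scaling, the dose differences of Actb and Gapdh reversed to -0.076 and -0.046. The cause was not tested. The number of unequal steps was 0 in every alternative. A replicate block gave 1 call between the doses (miR-203, 0.79 ± 0.08 SE), 29 responses and 13 plateaus; same-numbered mice correlated at 0.40, -0.10, 0.12 and 0.08, so the numbers were not taken to pair them. Single miRNAs, probes and the count of graded miRNAs were also scored under each alternative. Tested differences were scored by direction and side of the threshold, and other named miRNAs by whether the interval of the dose difference lay within 0.5. Of these values 2984 stayed the same, 258 became weaker, 34 became stronger, 3 reversed and 2 values of the graded count moved. With 4 mice a dose, differences well above the median SE of 0.12 also failed to pass, such as 0.63 for miR-101a and -0.89 for miR-1. A miRNA that did not pass may therefore still differ between the doses. Counts near 70 lie at the detection bound.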

Other observations

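Of the 33 viral miRNA probes on the assay, none exceeded the detection bound in 3 or more of the 8 LPS lanes, and the most for any probe was 2 lanes.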
